A study of Mus musculus with 13 samples.

Results

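miR-338 was examined in flank tumors of mice fed curcumin. Both mature arms of its hairpin were on the array, mmu-miR-338-3p and mmu-miR-338-5p, which makes 2 of the 1079 mouse miRNAs measured. mmu-miR-338-3p was picked because it was among the miRNAs with the largest rise under curcumin in these same arrays. Its level in each diet and the difference between the diets are therefore given as a description without a test, and the same holds for its partner arm. The miRNA signature was measured in 13 subcutaneous tumors grown from B78H1 cells, with 1 array per tumor. All mice were males of the C57BL/6 strain and received B78H1 cells under the skin of each flank. The curcumin group (n = 7) received chow with 4% curcumin, the control group (n = 6) received standard chow without it, and feeding began 14 days before the injection. RNA was taken from the tumors after a growth period of 28 days.

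B78H1 is an amelanotic clone of the mouse melanoma line B16 that lacks Tap-2 and MHC class I. The results therefore concern 1 melanoma clone growing under the skin. The RNA was that of whole tumor tissue, which holds host cells beside the melanoma cells, and in such bulk samples fewer cells of a type and less RNA per cell cannot be told apart. The labels number the tumors within each diet but name neither the animal nor the flank, so p-values measure the spread between these 13 samples.

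MicroRNAs are short RNAs that guide Argonaute proteins to messenger RNAs, mostly through the seed near their 5′ end, and lower the output of the matched messages. The miR-338 hairpin lies within the gene of the kinase Aatk and is cut into a 5′ and a 3′ arm. miR-338-3p is best known from the nervous system, where it is abundant in oligodendrocytes and, with miR-219, promotes their maturation.

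The mature sequences of both arms are shown with the seed (bases 2 to 8) in capitals, because the arms carry unlike seeds and moved unlike between the diets. The opposite strand of the same locus codes for miR-3065, whose 5p arm is shown for comparison.
mmu-miR-338-3p: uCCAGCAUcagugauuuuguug
mmu-miR-338-5p: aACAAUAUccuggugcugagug
mmu-miR-3065-5p: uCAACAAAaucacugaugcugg

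Of the 1079 array miRNAs, 840 matched a mature RefSeq sequence, and none of the others among these shared the seed of either miR-338 arm. In the RefSeq annotation of GRCm38.p6, the miR-338 hairpin spans 98 bases at chr11:120014765-120014862 on the minus strand, within the bounds of Aatk, which is on the same strand. The 3p arm maps to chr11:120014781-120014802 and the 5p arm to chr11:120014816-120014837. The miR-3065 hairpin lies on the plus strand, and all of its 87 bases overlap the miR-338 hairpin. miR-338-3p and miR-3065-5p are complementary over 21 bases in 1 run. The hairpin is printed with both mature arms in capitals, the 5p arm first.
mmu-mir-338 hairpin: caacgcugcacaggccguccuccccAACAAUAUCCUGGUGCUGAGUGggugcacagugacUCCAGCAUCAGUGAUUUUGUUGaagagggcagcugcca

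The arrays differed in their summed signal before normalization, which ran from 114095 to 281508 in the curcumin group (median 205110) and from 150272 to 244666 in the control group (median 171250). Between 272 and 412 miRNAs per array were called detected. Curcumin tumor 5 stood apart, with the lowest summed signal of all 13 arrays, the fewest detected miRNAs (272) and the lowest share of spots well above background (19.0%). Results on miR-338 and its closest miRNAs are given with and without it. Each of the 2 slides held both diets, with 3 curcumin and 2 control tumors on slide 1 and 4 of each on slide 2. On both slides, however, all control tumors were hybridized in 1 line of arrays and all curcumin tumors in the other, so line and diet cannot be told apart.

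The level of miR-338-3p was higher in every curcumin-fed tumor than in every control tumor. Values are log2 of the background-subtracted signal, summed over the probes of the miRNA and quantile normalized over the 13 arrays. In curcumin tumors 1 to 7, the log2 signal of miR-338-3p was 5.65, 6.20, 5.37, 6.10, 4.13, 5.88 and 6.05. In control tumors 1 to 6, it was 3.26, 2.54, 2.89, 2.32, 3.37 and 3.83. The groups did not overlap, and the closest tumors were curcumin tumor 5 and control tumor 6. All 7 curcumin tumors and all 6 control tumors were called detected by the scanner software. The mean log2 signal was 5.63 ± 0.72 (SD, n = 7) under curcumin and 3.03 ± 0.56 (SD, n = 6) on the control diet. This difference of 2.59 on the log2 scale (SE 0.36) corresponds to a 6.03-fold higher mean. Without curcumin tumor 5, the difference was 2.82 on the log2 scale. It was 2.84 (SE 0.39) within slide 1 and 2.44 (SE 0.56) within slide 2.

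**Figure D1:**
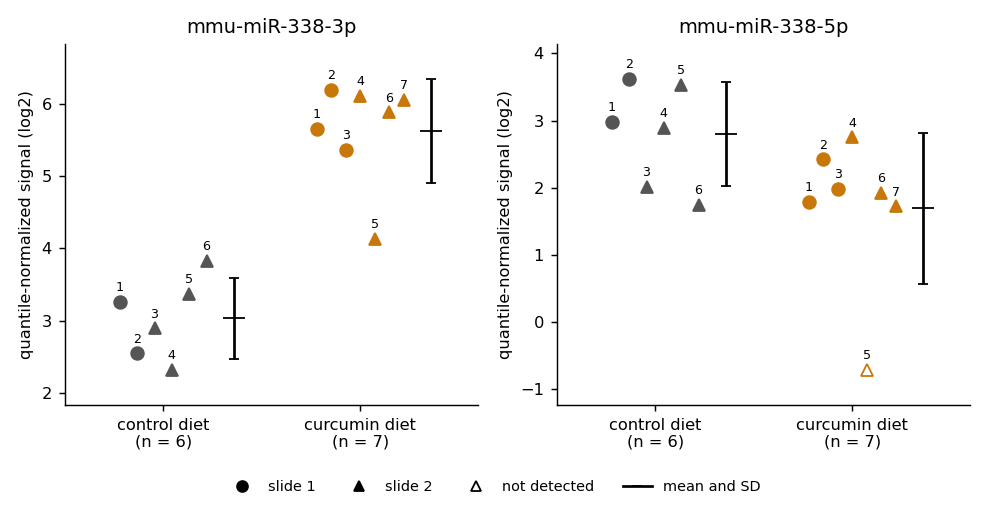
Log2 quantile-normalized signal (y axis) of mmu-miR-338-3p on the left and mmu-miR-338-5p on the right for the 6 control and 7 curcumin tumors (x axis), with tumor numbers above the points, circles for slide 1, triangles for slide 2, an open symbol where the miRNA was not detected, and bars for mean and SD. The 3p values lie between 4.13 and 6.20 under curcumin and between 2.32 and 3.83 in controls, whereas the 5p values of the diets overlap.

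A lack of overlap of this kind was seen for 20 of the 243 miRNAs detected on all arrays in the direction of curcumin (8.23%) and for 9 (3.7%) in the other direction. Since miR-338-3p was chosen on this contrast, nothing is read from that share. The separation depended on the scaling between arrays: with the 75th percentile of the miRNAs detected on all arrays, curcumin tumor 5 (4.05) fell just below control tumor 6 (4.09), and without any normalization the groups overlapped as well.

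The place of miR-338-3p in the order of rises follows from how it was chosen and is given once. Among the miRNAs that passed limma with an adjusted p below 0.05 and had a detection call in all tumors of at least 1 diet, its mean difference ranked as number 6. This filter only set which miRNAs were ranked and is not read as a test of miR-338-3p. Directly above it stood miR-221-3p with a difference of 2.80 on the log2 scale, and directly below it miR-21-5p with 2.57. The SE of the diet difference was 0.39 for miR-221-3p, 0.36 for miR-338-3p and 0.54 for miR-21-5p. Whether these neighbours in the order differed from each other was not tested. By the ratio of the medians of the values the authors deposited, miR-338-3p ranked as number 12 with a ratio of 5.40, between miR-1a-3p (5.46) and miR-22-3p (5.00).

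Both array probes of miR-338-3p showed the higher signal under curcumin. Each probe had 20 spots, and its signal is given before normalization between arrays. Probe A_54_P2545 had a median signal of 39.8 under curcumin (lowest 5.82, highest 67.0) and of 6.70 in controls (lowest 4.24, highest 17.7), a ratio of medians of 5.94. Probe A_54_P2544 had a median of 10.4 under curcumin (lowest 1.16, highest 17.1) and of 0.957 in controls (lowest 0.0750, highest 3.77). No ratio is given for this second probe, since its control signal was at the background. None of its spots was well above background in any control tumor, whereas all 20 spots were in the median curcumin tumor. For A_54_P2545, the median number of spots well above background was 20 under curcumin and 14.5 in controls. Before normalization the groups overlapped for both probes, and curcumin tumor 5 had the lowest signal of its group for each. The level of miR-338-3p was thus carried mainly by A_54_P2545 in both diets, while A_54_P2544 was at the background in controls.

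**Figure D2:**
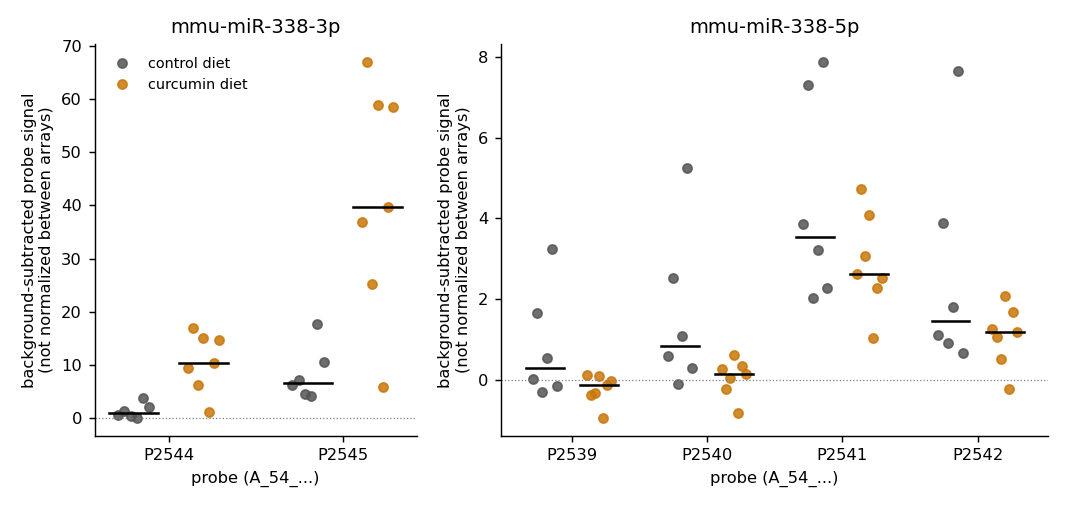
Background-subtracted probe signal in scanner units on a linear scale, not normalized between arrays (y axis), for each probe (x axis) of mmu-miR-338-3p on the left and mmu-miR-338-5p on the right, with 1 point per tumor and horizontal lines at the group medians. Both 3p probes have higher medians under curcumin (39.8 against 6.70 and 10.4 against 0.957), while of the 4 probes of the 5p arm only A_54_P2541 (2.62 against 3.54) has a median number of spots well above background that exceeds 0.

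The partner arm miR-338-5p was not higher under curcumin. Its log2 signal in curcumin tumors 1 to 7 was 1.79, 2.42, 1.98, 2.75, -0.72, 1.92 and 1.72, and in control tumors 1 to 6 it was 2.98, 3.62, 2.01, 2.89, 3.53 and 1.74. The groups overlapped between 1.74 and 2.75, and 4 of the 6 control tumors lay above every curcumin tumor. The mean was 1.69 ± 1.13 (SD, n = 7) under curcumin and 2.79 ± 0.77 (SD, n = 6) in controls, a difference of -1.10 on the log2 scale (SE 0.54). A detection call for this arm was made in 6 of 7 tumors under curcumin and in all 6 controls. Curcumin tumor 5, in which it was not detected, had the lowest value, and without this tumor the difference was -0.69. Within the slides it was -1.24 and -1.12. In the values the authors deposited, the difference shrank to -0.43.

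The median signal of miR-338-5p was low on each of its probes. The brightest of its 4 probes, A_54_P2541, had a median signal of 2.62 under curcumin and 3.54 in controls, a ratio of 0.741. The other 3 probes had a median of 0 spots well above background in both diets, and no ratio is given for them. Single control tumors were brighter. All 10 spots of A_54_P2542 were well above background in control tumors 2 and 5, and all 10 of A_54_P2540 in control tumor 5. Of the 3 probes, A_54_P2539 was at or below 0 in 5 of 7 curcumin tumors and in 2 of 6 control tumors.

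The miRNA of the opposite strand was hardly measured in these tumors. miR-3065-5p was called detected on no array, and all 7 curcumin tumors and 5 of 6 control tumors were at the lowest value of the scale. miR-3065-3p was called detected only in control tumor 5, which also had the most detected miRNAs of all arrays (412). Neither arm differed between the diets in limma (adjusted p = 0.687 for miR-3065-5p and 0.124 for miR-3065-3p), although values below the detection call allow no statement on a difference of either arm.

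The size of the miR-338-3p difference depended on the background correction more than on any other choice. It remained between 2.19 and 2.84 on the log2 scale under all other choices run, including the omission of each tumor in turn. With a normexp correction of the spot medians, which adds an offset and so compresses dim signals, it was 0.75, and the groups still did not overlap. For miR-338-5p, the difference was below 0 under every choice run, but ranged from -2.62 to -0.038. The values near the lower end came from both 75th percentile scalings and from the omission of normalization, under which the undetected arm in curcumin tumor 5 lay at the floor of the scale (-10.58, -10.81 and -10.71).

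**Figure D3:**
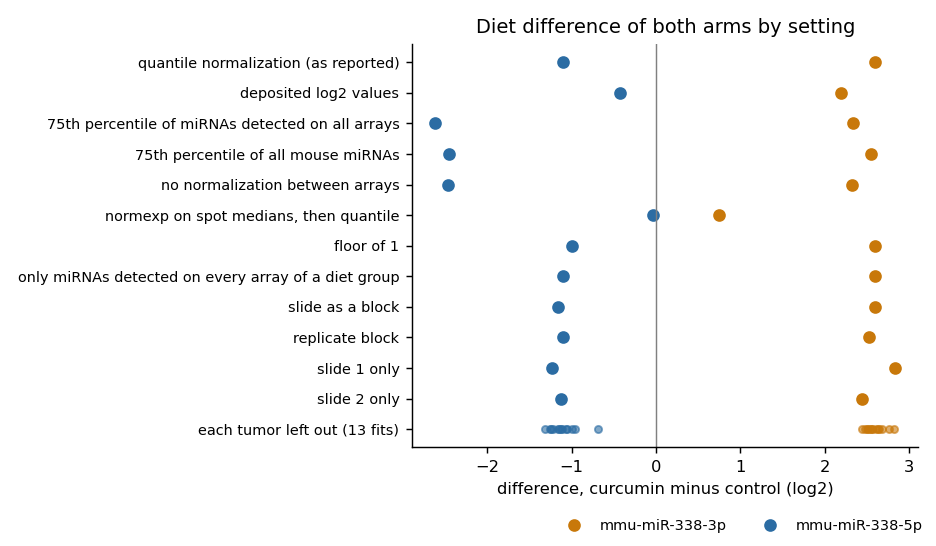
Difference between curcumin and control tumors in log2 signal (x axis) for mmu-miR-338-3p (orange) and mmu-miR-338-5p (blue) under each processing choice (y axis), with small points for the fits that leave out 1 tumor. The 3p difference lies to the right of 0 under every choice shown (0.75 to 2.84) and the 5p difference to the left (-2.62 to -0.038).

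Which miRNAs varied together with miR-338-3p was examined within the diets, so that the difference between the group means did not enter. A tumor with levels near those of the other diet can still bring the diet difference into r. For each tumor, the deviation from the mean of its own diet group was taken, and Pearson's r to the deviation of miR-338-3p was computed for each of the other 242 miRNAs detected on all arrays. The p-value came from an exact permutation test that shuffled miR-338-3p within each diet, two-sided and adjusted by Benjamini-Hochberg over the 242 miRNAs. After this adjustment, 1 of 242 miRNAs (0.413%) co-varied with miR-338-3p, namely miR-146b-5p. Without adjustment, 68 miRNAs (28.1%) had a p below 0.05, of which 31 had a positive and 37 a negative r. With ranks taken within each diet in place of the values, none of the 242 passed the adjusted test, while 22 had an unadjusted permutation p below 0.05.

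Among these 242 miRNAs, the 5 that followed miR-338-3p most closely were miR-146b-5p, miR-322-5p, miR-125b-5p, miR-29b-3p and miR-199b-5p. When the 303 miRNAs detected in every tumor of a diet were compared, miR-146b-5p ranked as number 2. A miRNA not detected on all arrays was thus closer still. miR-146b-5p targets adaptors of Toll-like receptor signaling, and miR-322-5p is the mouse counterpart of human miR-424. miR-29b-3p targets messages of collagens and other matrix proteins. The sequences of the closest and of the most opposed miRNA are given with the seed in capitals, as they show that neither shared the seed of miR-338-3p.
mmu-miR-146b-5p: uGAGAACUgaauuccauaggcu
mmu-miR-322-5p: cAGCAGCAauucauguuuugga
mmu-miR-130b-3p: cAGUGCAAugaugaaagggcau

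miR-146b-5p had an r of 0.91 to miR-338-3p over the 13 tumors (exact permutation p = 0.00014, adjusted p = 0.0339) and a rho of 0.80 (exact permutation p = 0.00362, adjusted p = 0.429). The r was 0.95 within the 7 curcumin tumors and 0.84 within the 6 control tumors. Its log2 signal was lowest in curcumin tumor 5 (4.61) among the curcumin tumors and in control tumor 4 (2.49) among the controls, and in both diets these were also the tumors with the lowest miR-338-3p. In control tumor 6, both miRNAs had the highest level of the control group. Without the 2 tumors with the largest deviations, curcumin tumor 5 and control tumor 4, the r was 0.79. Without curcumin tumor 5 alone, it was 0.84 with an adjusted exact permutation p of 0.652, so the adjusted call was lost. The call was also lost on leaving out several other tumors. Of the 13 fits that leave out 1 tumor, 4 kept the adjusted p of miR-146b-5p below 0.05, with r between 0.84 and 0.96 and adjusted p between 0.0052 and 0.652.

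**Figure D4:**
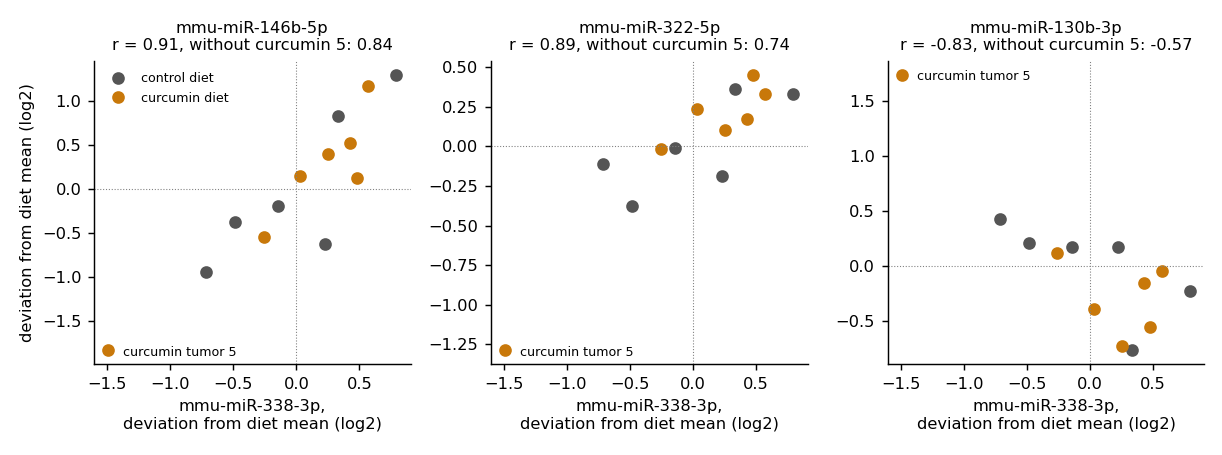
Deviation of each tumor from the mean of its diet group in log2 signal, for mmu-miR-338-3p on the x axis and mmu-miR-146b-5p, mmu-miR-322-5p and mmu-miR-130b-3p on the y axes from left to right, with 1 point per tumor. Curcumin tumor 5 lies far from the other tumors in each panel, and r drops from 0.91 to 0.84, from 0.89 to 0.74 and from -0.83 to -0.57 without it.

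The other 4 of the closest miRNAs did not pass the adjusted test, each with an adjusted exact permutation p of 0.139. miR-322-5p had an r of 0.89 to miR-338-3p, with a rho of 0.78, and 0.74 without curcumin tumor 5. The r of miR-125b-5p was 0.86 with all tumors and 0.70 without curcumin tumor 5. That of miR-29b-3p was 0.82 and 0.61, and that of miR-199b-5p 0.81 and 0.59. All 5 had a positive r within each diet. Without the 2 farthest tumors, r fell to between 0.40 and 0.79. These 5 miRNAs also differed between the diets in the same direction as miR-338-3p, with differences of 1.64 to 3.01 on the log2 scale (limma, adjusted p between 0.0013 and 0.0038). Of the 243 miRNAs detected on all arrays, limma called 101 (41.6%) in either direction, and of all 1079 miRNAs it called 90 (8.34%) higher.

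The 5 miRNAs with the most negative r to miR-338-3p were miR-130b-3p (-0.83), miR-18a-5p (-0.82), miR-25-3p (-0.77), miR-1306-3p (-0.76) and miR-5097 (-0.76). miR-18a and miR-25 belong to the miR-17-92 cluster and its paralog miR-106b-25, which promote proliferation. The adjusted exact permutation p of these 5 lay between 0.139 and 0.144, so none passed. All 5 had a negative r within each diet, although that of miR-5097 was -0.20 in the control tumors. Without curcumin tumor 5, the r of these miRNAs lay between -0.57 and -0.37. Each was lower under curcumin, with differences from -1.79 for miR-130b-3p to -0.67 for miR-25-3p on the log2 scale (limma, adjusted p between 0.00875 and 0.025). Of all 1079 miRNAs, limma called 81 (7.51%) lower, and of the 243 detected on all arrays 101 (41.6%) in either direction. The closest and the most opposed miRNAs were ranked by an r that curcumin tumor 5 shaped. Nothing is therefore read from their direction between the diets.

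Curcumin tumor 5 shaped the whole distribution of co-variation. Its log2 signal lay within the range of the control tumors for miR-146b-5p (4.61, controls 2.49 to 4.73) and miR-130b-3p (7.97, controls 7.25 to 8.45). The same held for miR-322-5p, miR-29b-3p, miR-18a-5p, miR-25-3p, miR-1306-3p and miR-5097. Its miR-125b-5p, miR-199b-5p and miR-338-3p lay above every control tumor. The r over all tumors can thus partly repeat the difference between the diets, which was not tested. Over all 13 tumors, the r to miR-338-3p was above 0.7 for 18 of the 242 miRNAs and below -0.7 for 14. Without curcumin tumor 5, these counts were 2 and 0, and 5 miRNAs instead of 68 had an unadjusted exact permutation p below 0.05. The deviation of miR-338-3p itself was related to the summed signal of the array with r = 0.60 (exact permutation p = 0.0564) and rho = 0.60 (exact permutation p = 0.0468). Its r to the number of detected miRNAs was 0.52 (exact permutation p = 0.0837) and its rho 0.21 (exact permutation p = 0.536). To its own partner arm miR-338-5p, r was 0.51 (exact permutation p = 0.117) and rho 0.27 (exact permutation p = 0.406). After adjustment of r over these 3 relations, each p was 0.117. Without the 2 farthest tumors, the 3 values of r were 0.26, -0.07 and -0.22, so these relations rested on those tumors.

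**Figure D5:**
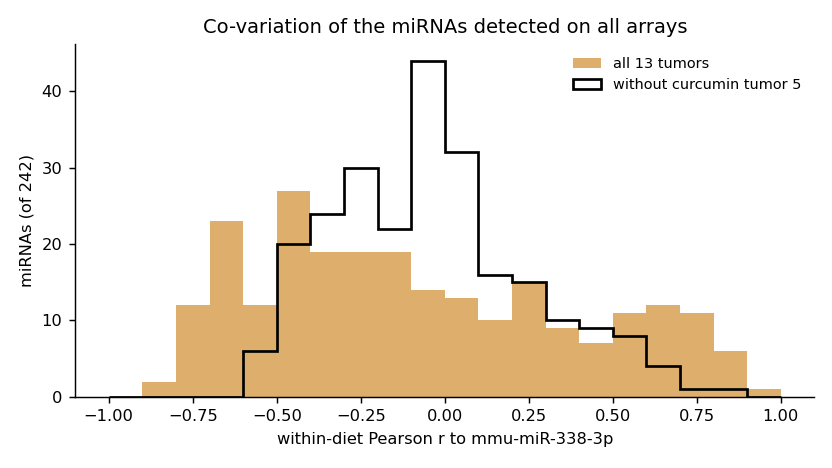
Number of miRNAs (y axis) by their within-diet Pearson r to mmu-miR-338-3p (x axis, bins of 0.1) for the 242 other miRNAs detected on all arrays, filled for all 13 tumors and as a black line without curcumin tumor 5. The distribution is broad over all tumors, with 18 miRNAs above 0.7 and 14 below -0.7, and narrower without this tumor, with 2 and 0.

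To place miR-338-3p among miRNAs of known settings, 10 lists with 45 miRNAs were set beside it. They were chosen with earlier results of these arrays known, and their counts are descriptions. Of these miRNAs, 43 were found on the array, and limma called 13 higher and 4 lower under curcumin. Over all 1079 miRNAs of the array, limma called 171 (15.8%) at an adjusted p below 0.05, 90 of them higher (8.34%) and 81 lower (7.51%). The median difference was 0.51 on the log2 scale over the 43 listed miRNAs, 0 over all miRNAs and -0.09 over those detected on all arrays. Of all miRNAs, 594 were detected on no array, and values at the floor pull their median to 0.

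The neural list, the setting from which miR-338-3p is best known, showed no common direction with it. Of its 12 members on the array, 2 were higher and 3 lower under curcumin, and their median difference was 0. That median was set by miR-124-3p, miR-137-3p and miR-153-3p, which lay at the floor in every tumor, so it shows no direction. miR-219-5p, the oligodendrocyte partner of miR-338, was higher by 0.99 on the log2 scale (SE 0.25, limma adjusted p = 0.0228), with an r to miR-338-3p of 0.29, and of 0.0051 without curcumin tumor 5. miR-7a-5p was higher by 0.95 (limma adjusted p = 0.0318), a call lost in 10 of 25 alternatives. miR-138-5p was lower, with a difference of -1.30 (limma adjusted p = 0.0115), as was miR-128-3p with -1.06 (limma adjusted p = 0.0205). miR-129-5p was called lower as well (limma adjusted p = 0.0422) but was detected on no array. The neuronal miR-124-3p, miR-137-3p and miR-153-3p were also detected on no array. The summed log2 level of the list ranged from 8.63 to 9.13 under curcumin and from 8.29 to 9.21 in controls.

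Members of lists of other cell types differed between the diets as well. All 5 hematopoietic miRNAs were higher under curcumin, with a median difference of 2.31 on the log2 scale and a summed log2 level of 9.23 to 10.80 against 8.29 to 9.04 in controls. Of all 1079 miRNAs, limma called 90 (8.34%) higher. For the miRNAs detected on all arrays, to which miR-150-5p and miR-142-5p do not belong, the share called in either direction was 41.6%. miR-150-5p was detected in no control tumor, with 3 of 6 at the floor, and miR-142-5p was detected in 3 of 6. The call of miR-342-3p (0.42, limma adjusted p = 0.0471) was lost in 15 of 25 alternatives and that of miR-223-3p (1.21, limma adjusted p = 0.0295) in 9. For the 3 detected on all arrays, the r to miR-338-3p lay between 0.42 and 0.62, and between 0.35 and 0.60 without curcumin tumor 5. None of the 3 passed the adjusted exact permutation test (p between 0.150 and 0.392 with all tumors). Both arms of miR-140, a miRNA of cartilage, were higher (2.12 and 2.28 on the log2 scale, limma adjusted p = 0.00203 and 0.00179). Their r to miR-338-3p within the diets was 0.81 and 0.78, and 0.70 and 0.55 without curcumin tumor 5. Neither passed the adjusted exact permutation test (p = 0.139 for each). Their summed log2 level was 11.58 to 13.17 under curcumin and 10.09 to 11.47 in controls. Of the 5 fibroblast and smooth muscle miRNAs, miR-199a-5p and miR-199a-3p were higher (2.55 and 2.21 on the log2 scale, limma adjusted p = 0.00655 and 0.00179), and the summed log2 level was 8.96 to 10.09 against 7.34 to 8.62. miR-143-3p differed by 0.20 (limma adjusted p = 0.687) and miR-145-5p by -0.05 (limma adjusted p = 1), and miR-214-3p did not pass either (5.61, limma adjusted p = 0.0501). For miR-214-3p, however, 2 control values lay at the floor, and it passed limma in 7 of 25 alternatives. The r to miR-338-3p was 0.74 for miR-199a-3p, 0.55 for miR-199a-5p, 0.19 for miR-143-3p and -0.29 for miR-145-5p, of which none passed the adjusted test. The part of these cell types in the difference of miR-338-3p was not tested.

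The remaining lists gave few calls. In the epithelial list, 1 of 7 was higher, miR-205-5p, by 9.32 on the log2 scale (limma adjusted p = 0.0293), and the 5 members of the miR-200 family were detected on no array. The size for miR-205-5p depended on the floor under 2 of the control values, with 6.76 at a floor of 1 and 3.48 with normexp, and the call was lost in 11 of 25 alternatives. The summed log2 level of this list was 7.77 to 10.76 under curcumin and 1.73 to 7.37 in controls. Of the 4 skeletal muscle miRNAs, miR-206-3p was higher by 1.24 (limma adjusted p = 0.0423), a call lost in 17 of 25 alternatives, and the summed level ranged from 4.86 to 9.91 and from 4.55 to 9.25. Of the 2 melanocytic miRNAs, miR-211-5p was lower, with a difference of -4.76 (limma adjusted p = 0.0305), with a detection call in 4 of 7 tumors under curcumin and in all 6 controls. The limma call was lost in 12 of 25 alternatives. The summed melanocytic level was 2.07 to 9.29 under curcumin and 8.27 to 9.73 in controls. None of the 2 endothelial miRNAs, of the 2 erythroid miRNAs measured and of the 2 arms of miR-3065 passed the adjusted limma test. The endothelial miR-126-3p did pass in 6 of 25 alternatives. The summed endothelial level was 7.99 to 9.68 and 7.10 to 8.14, and the erythroid one 5.50 to 8.11 and 5.32 to 9.48. The part of these lists in the difference of miR-338-3p was not tested either.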

How the data were processed

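Total RNA of 13 flank tumors was labeled with Cy3 and hybridized to 1-color mouse miRNA arrays. Scanner intensity values were deposited as given out by the software Feature Extraction (10.10.1.1), with background subtracted, the spots of a probe combined and a detection call for each miRNA. The log2 values that the authors deposited are described in the methods as quantile normalized. Any offset added before log2 is not given in the sources used here, and every array has the same median of 2.09. Groups and tumor numbers came from the sample labels. No pair of arrays was identical and no spot was saturated.

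Here, the total probe signals (2754 probes) were summed for each of 1079 mouse miRNAs, without 57 virus miRNAs, followed by quantile normalization. Normalized values not above 0 (51.4%) were brought to a floor of 0.00765, the smallest positive normalized value, before log2. A detection call was made on every array for 243 miRNAs and on none for 594. The comparison of the diets used limma 3.58.1 in R 4.3.3 and Benjamini-Hochberg adjustment over all 1079, with a threshold of 0.05. Co-variation was computed in Python (version 3.11.15) over all 3628800 orders of the tumors within the diets. Both steps were tested on simulated data. The miR-338 arms, the lists and the tests were chosen with earlier results of these data known. Named were both arms, the 5 highest and 5 lowest r, the neighbours in the order of rises, miRNAs sharing a seed, and all list members. Neighbours in the order of the deposited medians were added after their values were seen. miR-219-3p and miR-486-5p were not matched by name and were left out.

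Alternatives were the deposited values, scaling to the 75th percentile of all or of the detected miRNAs, no normalization, normexp with an offset of 50, a floor of 1, a detection filter, the slide or the tumor number as a block, the methods' t-test, ranks, and the omission of each tumor. Normexp was planned on spot means but run on spot medians, a change from the plan. Comparisons within each slide and the omission of the 2 farthest tumors were added after the data were seen. The number of arrays limits the precision. Array coordinates refer to another build (mm9) than the RefSeq tables and were not used. Gene bounds only were read for Aatk, not exons.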

Additional observations from a re-analysis of the deposited data

Results flagged for a closer look

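In 28 groups of tumor values tested for a value far from the rest, 11 had one. All 11 were values of curcumin tumor 5 among the 7 curcumin tumors, so they are not independent of each other. The rule flags about 1 in 20 by chance. That share is no yardstick here, since most of the flagged miRNAs were chosen for their r to miR-338-3p, which this tumor shaped. This tumor had the lowest log2 signal of miR-338-3p (4.13) and of miR-338-5p (-0.72). It was also lowest for miR-322-5p (8.38), miR-125b-5p (10.19), miR-29b-3p (9.51) and miR-199b-5p (8.14), which rank among the closest to miR-338-3p. It was highest for miR-130b-3p (7.97), miR-18a-5p (7.54), miR-25-3p (8.88) and miR-5097 (11.80), which rank among the most opposed. The number of detected miRNAs on its array was 272.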

How the results depend on the processing

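The difference of miR-338-3p was 0.75 on the log2 scale with normexp, and 2.44 to 2.82 when each tumor was left out. That of miR-338-5p was -2.62 and -2.46 with the 75th percentile of detected and of all miRNAs, -2.47 without normalization, -0.038 with normexp, and -1.32 to -0.69 when each tumor was left out, the smallest without curcumin tumor 5. With the 75th percentiles and without normalization, its undetected value in curcumin tumor 5 lay at the floor (-10.58, -10.81 and -10.71), which it did not in the reported values (-0.72). Same-numbered tumors correlated between -0.30 and 0.20 in their deviations from the diet means. The labels name no pairing, and whether the numbers pair the samples was not tested. With the replicate block, the differences were 2.52 and -1.10.

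limma called 171 miRNAs over the array (90 higher, 81 lower). The count was 105 with the 75th percentile of all miRNAs (73 higher, 32 lower), 49 without normalization (10 higher, 39 lower), 67 with the replicate block (45 higher, 22 lower), 34 within slide 1 and 3 within slide 2, and 102 to 184 when each tumor was left out. It was over 1.5 times lower without curcumin tumor 1, 2 or 6 or control tumor 2 or 4. Of the listed miRNAs, 17 passed, against 7 without normalization, 9 with the replicate block, 3 within slide 1, 0 within slide 2 and 10 to 17 when each tumor was left out, with 11 or fewer without curcumin tumor 1, 2 or 6 or control tumor 1, 3 or 4. The slides hold fewer tumors. The median of miRNAs detected on all arrays was -0.09 as reported, -0.25 with their 75th percentile and -0.26 without normalization.

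The number of miRNAs that co-varied with miR-338-3p was 1 as reported, 0 with the deposited values, 0 by rho, 0 with the slide as a block, 0 with the replicate block (differences within same-numbered pairs), 0 without the 2 farthest tumors, 2 with either 75th percentile, 2 with the detection filter, 3 with normexp, 145 without normalization and 0 to 2 when each tumor was left out. Leaving out curcumin tumor 7 gave 2, and 0 were left without curcumin tumor 1, 2, 3, 5 or 6 or control tumor 3, 4 or 5. Without normalization, r turned positive for miR-25-3p (0.465), miR-1306-3p (0.138) and miR-5097 (0.351).

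Differences near 0 changed sign for 3 listed miRNAs. miR-212-3p was -0.10 with the 75th percentile of detected miRNAs, -0.11 without normalization, -0.00063 with normexp, -0.018 with the slide as a block, -0.17 within slide 1 and -0.13 to 0.077 when each tumor was left out. miR-143-3p was -0.0038 without normalization and -0.086 within slide 1. miR-145-5p was 0.25 within slide 2 and -0.28 to 0.058 when each tumor was left out. The cause of these changes was not tested.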
